A study of Mus musculus with 8 samples.

Results

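The 10 genes considered here belong to selective autophagy and were followed in mouse bone marrow-derived macrophages treated with dimethyl itaconate (DI), a membrane-permeable ester of the mitochondrial metabolite itaconate. They are the cargo receptor genes Sqstm1, Nbr1 and Optn, the ATG8 genes Map1lc3a, Map1lc3b, Gabarap, Gabarapl1 and Gabarapl2, and the lysosomal transcription factor genes Tfeb and Tfe3. They were chosen by name as 3 receptors, 5 ATG8 genes and 2 transcription factors, and all 10 were found by symbol among the 22165 genes of the count table. All 10 also passed the filter on low counts that left 11079 genes for testing.

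The study crossed genotype with treatment, using wild-type (WT) and Nrf2-/- mice of the strain C57BL/6. Nrf2-/- mice carry a germline loss of the oxidative stress transcription factor NRF2 (gene Nfe2l2) and came from a commercial breeder, while the origin of the WT mice and the age and sex of all mice are not given. Marrow cells of both genotypes were grown for 7 days in medium with the growth factor M-CSF, and the treated cultures then received 250 µM DI for 12 h. Control cultures are labelled only as controls. The 4 groups (WT control, WT with DI, Nrf2-/- control, Nrf2-/- with DI) held 2 libraries each, 8 in all. The labels do not say whether replicates came from separate animals, so p-values measure the spread between libraries, which may be technical.

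In selective autophagy, a receptor binds ubiquitin-tagged cargo with one end and a lipid-anchored ATG8 protein on the growing autophagosome membrane with the other. The receptor p62, product of Sqstm1, also captures KEAP1, the adaptor that marks NRF2 for degradation, and Sqstm1 is itself a known NRF2 target. TFEB and TFE3 are held in the cytoplasm when nutrients are plentiful, and in starved or stressed cells they enter the nucleus and switch on genes of autophagy and the lysosome. Macrophages use the same machinery to dispose of damaged mitochondria and invading bacteria.

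Library totals ran from 5554288 to 15680671 counts, and mitochondrial genes took 1.02 to 2.1% of them. Levels below are CPM, counts per 1000000 counts of the library, after scaling for library composition, and each library's own value is given because a group has only 2. All 8 macrophage markers were detected in every group. Their sums were 4150 to 4370 CPM in WT controls, 4120 to 4690 in WT with DI, 5060 to 5200 in Nrf2-/- controls and 3390 to 4030 in Nrf2-/- with DI. With DI, 3 of the 8 fell in WT (Itgam, Fcgr1 and Cx3cr1) and 3 fell in Nrf2-/- cells (Adgre1, Csf1r and Cx3cr1). Between genotypes with DI, Csf1r and Cd68 were lower and Cx3cr1 higher in Nrf2-/- cells. Neutrophil markers summed to 234 to 364 CPM, with S100a8 lower in Nrf2-/- than in WT cells with DI. Dendritic cell markers summed to 6.08 to 12.6 CPM, with Clec9a higher in Nrf2-/- than in WT cells with DI, and lymphocyte, mast cell and erythroid markers summed to at most 4.06 CPM. Stromal markers summed to 90.9 to 132 CPM in WT libraries and to 44.8 to 50.2 CPM in Nrf2-/- libraries, and the part of any of these markers in the results was not tested. In bulk RNA, a change in the mix of cells and a change in RNA per cell cannot be told apart. Nfe2l2 stood at 230 and 454 CPM in WT controls, 299 and 416 in WT with DI, 40.2 and 53 in Nrf2-/- controls, and 67.7 and 88.1 in Nrf2-/- with DI. The labels do not say which exons the Nrf2 allele lacks, so counts from outside the deleted stretch may be part of the Nrf2-/- values.

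With DI, 2 of the 10 genes rose in WT cells and 2 rose in Nrf2-/- cells at a Benjamini-Hochberg adjusted p under 0.05 over all tested genes. In WT these were Sqstm1 and Gabarapl1. In Nrf2-/- they were Sqstm1 and Optn. Over all 11079 genes, 6.51% rose and 8.68% fell in WT, while 4.49% rose and 4% fell in Nrf2-/- cells. None of the 10 was called lower in either genotype by edgeR with composition scaling, the filter on low counts and all 8 libraries. Without the filter, edgeR called Optn lower in WT and Tfe3 lower in Nrf2-/- cells. Tfe3 was also called lower there with composition scaling dropped. At an unadjusted p under 0.05, 5 had a positive and 1 a negative value in WT, and 4 a positive and 1 a negative value in Nrf2-/- cells. DESeq2 called 0 lower in WT and 1, Tfe3, lower in Nrf2-/- cells. The median log2 fold change of the 10 was 0.60 in WT and 0.36 in Nrf2-/- cells, against -0.02 and 0.00 for all tested genes.

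**Figure D1:**
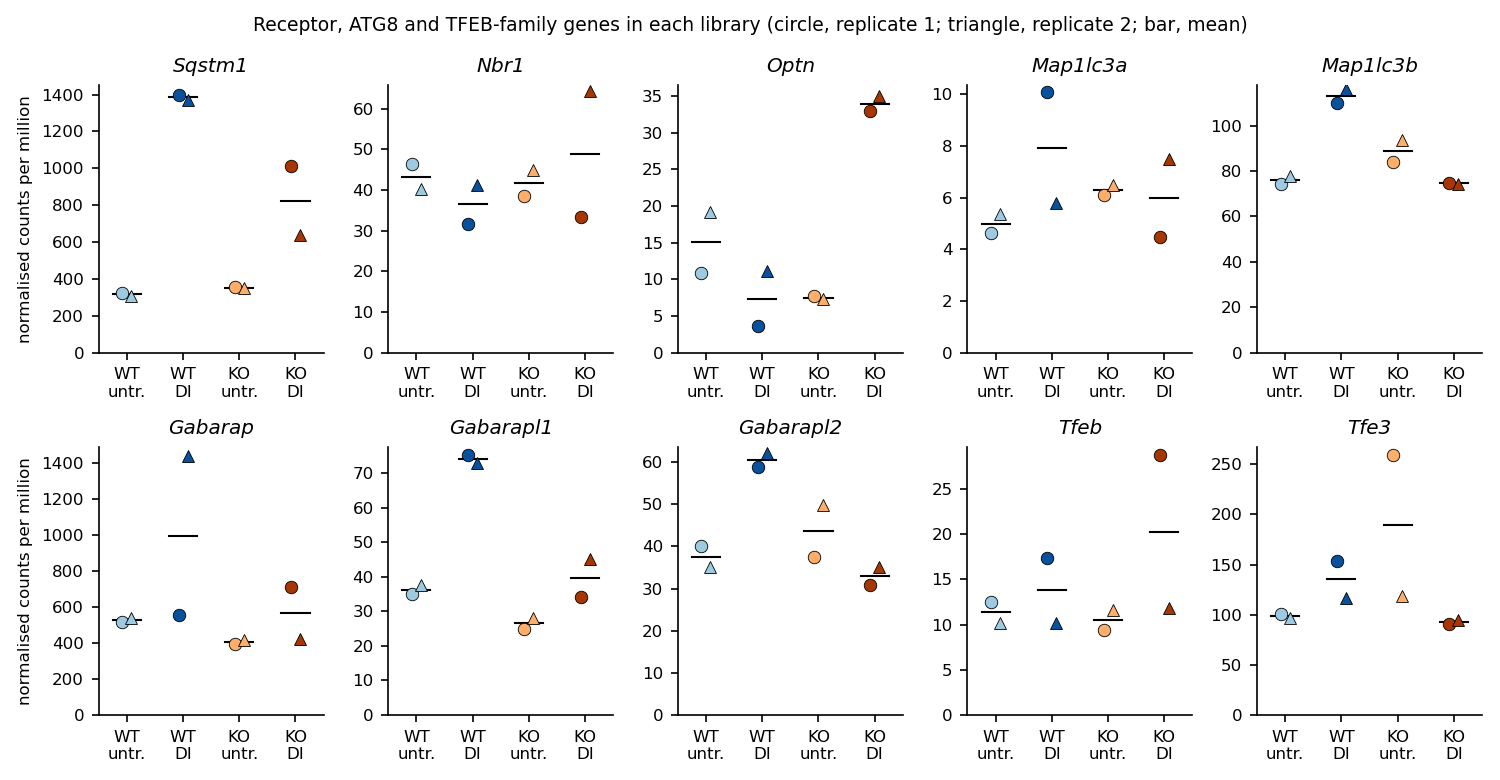
Normalised CPM (linear axes from 0) of each of the 10 genes in every library; the circle is replicate 1, the triangle replicate 2 and the bar the group mean of 2. Sqstm1 is higher in all 4 DI libraries than in any control, and Optn is highest in both Nrf2-/- libraries with DI at 32.9 and 35 CPM.

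The promoters of the 4 genes that differed in at least 1 comparison, Sqstm1, Optn, Gabarapl1 and Gabarapl2, are shown so that they can be read beside the values. Each is the 250 bases before the annotated start, 5′ to 3′ on the gene's own strand, from RefSeq (GRCm38.p6), with matches to the GC box GGGCGG, on this strand or read as CCGCCC on it, in capitals.
Sqstm1 promoter, chr11:50210821-50211070, minus strand: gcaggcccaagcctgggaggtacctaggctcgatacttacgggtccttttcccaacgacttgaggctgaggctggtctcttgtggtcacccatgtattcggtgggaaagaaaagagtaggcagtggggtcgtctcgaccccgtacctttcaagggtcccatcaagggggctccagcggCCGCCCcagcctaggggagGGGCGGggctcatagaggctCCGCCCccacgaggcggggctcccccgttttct
Optn promoter, chr2:5064118-5064367, minus strand: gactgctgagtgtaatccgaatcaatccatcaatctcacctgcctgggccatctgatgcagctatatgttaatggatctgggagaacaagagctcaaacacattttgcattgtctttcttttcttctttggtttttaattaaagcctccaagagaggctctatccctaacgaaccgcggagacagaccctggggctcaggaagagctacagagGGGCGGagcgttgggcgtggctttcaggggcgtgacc
Gabarapl1 promoter, chr6:129532942-129533191, plus strand: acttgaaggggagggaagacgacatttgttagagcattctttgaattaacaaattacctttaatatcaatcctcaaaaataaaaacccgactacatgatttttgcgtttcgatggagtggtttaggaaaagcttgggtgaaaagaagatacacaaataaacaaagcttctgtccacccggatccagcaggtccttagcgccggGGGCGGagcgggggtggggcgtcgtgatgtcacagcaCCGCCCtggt
Gabarapl2 promoter, chr8:111940453-111940702, plus strand: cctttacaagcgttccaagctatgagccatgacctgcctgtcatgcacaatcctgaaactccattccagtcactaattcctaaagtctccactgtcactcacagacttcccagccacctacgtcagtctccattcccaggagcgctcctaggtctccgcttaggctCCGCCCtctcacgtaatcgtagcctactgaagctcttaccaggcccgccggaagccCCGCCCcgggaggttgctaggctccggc

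RefSeq windows from 250 bases before to 50 after the start were found for 9 of the 10 genes (13 windows), and Map1lc3a had none. Both strands of these windows were searched, and sites farther from the start were not. The antioxidant response element core TGACNNNGC, which NRF2 binds, lay in 12.4% of all 32851 windows and in 1 of the 13, that of Map1lc3b. There the match began 5 bases after the start, in the stretch tcaccTGACTCGGCtgcggactga, with the match in capitals. The E-box core CACGTG occurred in 7.15% of all windows and the longer TFEB-type site TCACGTGA, which contains it, in 0.974%. Neither was found in the 13 windows. GC boxes, the site of the general factor SP1, occurred in 35.7% of all windows and in 10 of the 13, belonging to 8 genes. The 13 windows held 45.7% to 70.0% G and C, where the median of all windows was 52.7%. The part of this base content in the GC box share was not tested. The GC box, the AP-1 site TGANTCA (7.81% of windows, 1 of the 13, in Tfe3) and the heat shock element core GAANNTTC (7.86%, 1 of the 13, in Optn) were added to the search after the values had been seen.

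Sqstm1 (ENSMUSG00000015837, chr11:50199366-50210827, minus strand, GRCm38) had the largest change of the 10 genes in WT cells. Its levels were 323 and 310 CPM in WT controls and 1400 and 1370 CPM in WT with DI. The Nrf2-/- libraries gave 356 and 350 CPM in controls and 1010 and 641 CPM with DI. Libraries with DI lay above all controls in both genotypes, and the 4 groups did not overlap, in the order WT with DI, Nrf2-/- with DI, Nrf2-/- control, WT control. DI raised Sqstm1 4.36-fold in WT (log2 fold change 2.13 ± 0.24 SE, adjusted p = 0.000183) and 2.33-fold in Nrf2-/- cells (1.22 ± 0.24, adjusted p = 0.0126).

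The difference between these 2 responses was -0.90 ± 0.34 (95% interval -1.64 to -0.17), with an adjusted p of 0.117, so a smaller rise without NRF2 was not called. The controls of both genotypes differed by 0.16 ± 0.24 (adjusted p = 0.881). Among DI-treated cells Sqstm1 was lower in Nrf2-/- than in WT by 0.74 on the log2 scale (SE 0.24, adjusted p = 0.0446). That last difference is close to the threshold. The call was lost in 7 of the 8 fits that left out 1 library, and without Nrf2-/- DI replicate 2 the value was -0.45 (adjusted p = 0.247). It held without Nrf2-/- DI replicate 1, the library at 1010 CPM, at -1.10 (adjusted p = 0.0211). With composition scaling dropped it was -0.64 (adjusted p = 0.0691), and with only the DI-treated groups in the fit the adjusted p was 0.12. The rise in Nrf2-/- cells also depended on single libraries. Its adjusted p was 0.117 without Nrf2-/- control replicate 1, 0.114 without control replicate 2 and 0.0906 without DI replicate 1. The rise in WT passed in all 15 alternatives.

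Optn (ENSMUSG00000026672, chr2:5020642-5064051, minus strand) encodes optineurin, a receptor for damaged mitochondria and cytosolic bacteria that the kinase TBK1 activates. It was the gene whose response to DI differed by genotype. In Nrf2-/- cells it went from 7.70 and 7.27 CPM in controls to 32.9 and 35 CPM with DI, on 44 and 67 against 308 and 345 counts. In WT cells it stood at 10.9 and 19.2 CPM in controls and 3.61 and 11.1 CPM with DI, on 125, 297, 23 and 119 counts. Both Nrf2-/- DI libraries lay above every other library, and the WT control and WT DI ranges overlapped.

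The rise in Nrf2-/- cells was 4.54-fold (2.18 ± 0.41, adjusted p = 0.0102). The value in WT was -0.99 ± 0.40 (adjusted p = 0.117), and edgeR without the filter on low counts called Optn lower there. The difference of the 2 responses was 3.17 ± 0.57 (95% interval 1.92 to 4.41, adjusted p = 0.00774), and with DI present Nrf2-/- cells held 4.43-fold more Optn than WT cells (2.15 ± 0.40, adjusted p = 0.00325). Controls differed by -1.02 ± 0.41 (adjusted p = 0.391). WT libraries with DI disagreed on this gene by 3.07-fold, more than all but 0.547% of the 7490 tested genes with a mean of at least 10 CPM. Without WT DI replicate 2 the WT value became -2.04 (adjusted p = 0.0136) and the difference of responses 4.23. Without WT DI replicate 1 they were -0.41 and 2.60.

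The genotype difference with DI passed in all 15 alternatives, with values from 1.59 to 3.21. The rise in Nrf2-/- cells missed the threshold without Nrf2-/- control replicate 1 (adjusted p = 0.0921), without control replicate 2 (0.112) and without DI replicate 1 (0.0529), although its size stayed between 2.14 and 2.22. The difference of responses missed it without Nrf2-/- control replicate 2 (3.13, adjusted p = 0.0565). In Nrf2-/- cells with DI, genes with A-rich coding sequence tended to have higher values, the median log2 fold change going from -0.29 for genes whose richest 15 coding bases hold 7 A to 0.27 for those with 12. In WT it went from 0.15 to -0.27. Sqstm1 and Optn both hold 10, a class with medians of 0.00 in WT and 0.02 in Nrf2-/- cells. With this trend taken out, the difference of responses for Optn was 3.15 and all 9 called differences of the 10 genes remained past the threshold.

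Nbr1 (ENSMUSG00000017119, chr11:101552149-101581951, plus strand), a receptor that works beside p62 on ubiquitin-tagged aggregates, gave no called difference. It measured 46.3 and 40.3 CPM in WT controls, 31.7 and 41.3 in WT with DI, 38.5 and 44.9 in Nrf2-/- controls and 33.4 and 64.3 in Nrf2-/- with DI. All 4 groups overlapped with their neighbours in the order of levels. The log2 fold change with DI was -0.24 ± 0.29 in WT (95% interval -0.88 to 0.40) and 0.23 ± 0.29 in Nrf2-/- cells (-0.41 to 0.87). The latter became -0.32 without Nrf2-/- DI replicate 2, the library at 64.3 CPM.

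**Figure D2:**
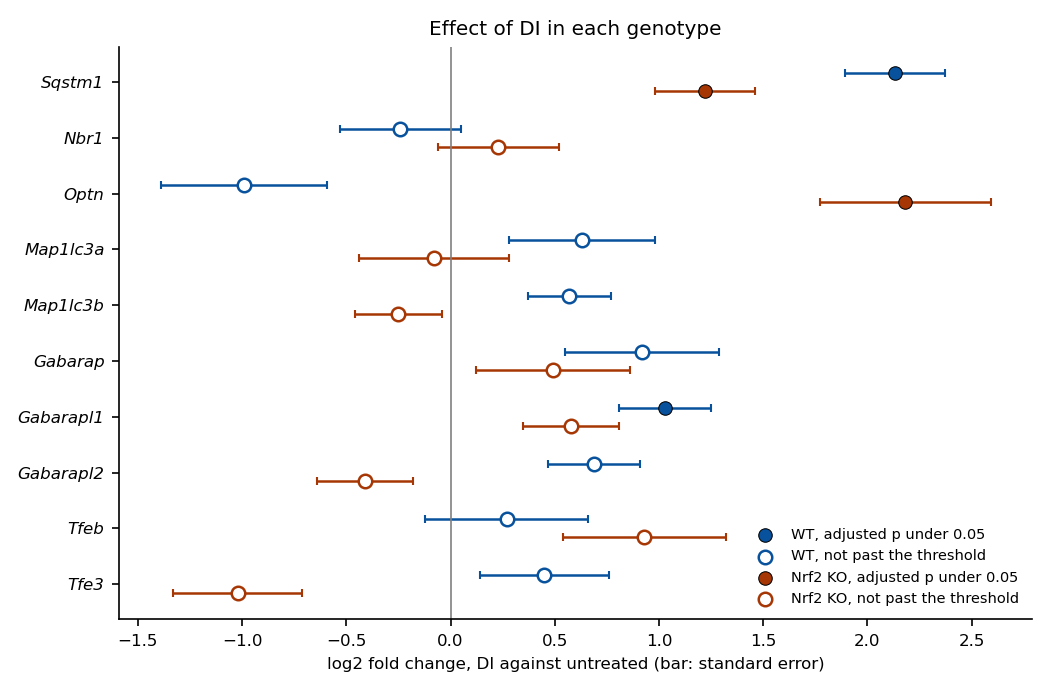
Log2 fold change with DI in WT (blue) and Nrf2-/- cells (brown) for each gene; horizontal bars are standard errors and filled points passed an adjusted p of 0.05. Sqstm1 is filled in both genotypes, Gabarapl1 only in WT (1.03) and Optn only in Nrf2-/- cells (2.18); of these 3 genes only Optn passed the test of the difference between genotypes.

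Among the ATG8 genes, whose small ubiquitin-like products are attached to phosphatidylethanolamine in the autophagosome membrane, 1 of 5 rose with DI in WT cells and 0 of 5 was called in Nrf2-/- cells. Gabarapl1 (ENSMUSG00000030161, chr6:129533160-129542346, plus strand) measured 35 and 37.6 CPM in WT controls and 75.1 and 72.9 CPM in WT with DI. Its Nrf2-/- libraries gave 25 and 28 CPM in controls and 34.2 and 45.2 CPM with DI. The WT DI libraries stood above all others, and the WT control and Nrf2-/- DI ranges overlapped.

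Gabarapl1 rose 2.04-fold in WT (1.03 ± 0.22, adjusted p = 0.00899), and its value in Nrf2-/- cells was 0.58 ± 0.23 (adjusted p = 0.129). The responses differed by -0.45 ± 0.32 (adjusted p = 0.382), so a genotype-dependent response was not called. With DI present the Nrf2-/- level was lower than the WT level by 0.90 (SE 0.22, adjusted p = 0.0143), and in controls the difference was -0.45 ± 0.23 (adjusted p = 0.525). The WT rise missed the threshold without WT control replicate 1 (adjusted p = 0.0565). The genotype difference missed it without Nrf2-/- DI replicate 1 (-0.71, adjusted p = 0.102).

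Gabarapl2 (ENSMUSG00000031950, chr8:111940703-111953612, plus strand), a member of the GABARAP subfamily, measured 40.1 and 35.1 CPM in WT controls and 58.9 and 62.1 CPM in WT with DI. Its Nrf2-/- libraries gave 37.6 and 49.8 CPM in controls and 30.8 and 35.2 CPM with DI. WT libraries with DI were the highest, and those of Nrf2-/- cells with DI lay at the low end of the controls. The DI values were 0.69 ± 0.22 in WT (adjusted p = 0.0581) and -0.41 ± 0.23 in Nrf2-/- cells (adjusted p = 0.276), and their difference of -1.10 ± 0.32 had an adjusted p of 0.056. With DI, the level was lower in Nrf2-/- than in WT cells by 0.87 (SE 0.23, adjusted p = 0.0179). This call was lost without WT DI replicate 2 (adjusted p = 0.0607) and without Nrf2-/- DI replicate 1 (0.0988). DESeq2 called both the WT rise (adjusted p = 0.0482) and the difference of responses (0.0315). Processed pseudogenes Gm5829, Gm3724 and Gm6051 are 96.6% to 99.4% identical to the Gabarapl2 transcript over 349 to 352 bases, and were not analysed here. Reads could be shared between the copies, so the Gabarapl2 level is uncertain to that extent.

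Map1lc3b (ENSMUSG00000031812, chr8:121590361-121598760, plus strand), the gene of the standard autophagosome marker LC3B, followed a similar order, and edgeR called no difference. It measured 74.4 and 77.8 CPM in WT controls, 110 and 116 in WT with DI, 83.8 and 93.7 in Nrf2-/- controls, and 74.9 and 74.2 in Nrf2-/- with DI. WT DI libraries lay above the rest. The DI value was 0.57 ± 0.20 in WT (adjusted p = 0.0818) and -0.25 ± 0.21 in Nrf2-/- cells (0.468). The difference of responses was -0.82 ± 0.29 (0.102), and with DI the genotypes differed by -0.60 ± 0.21 (0.0571). DESeq2 called that last difference (-0.59, adjusted p = 0.0458). With the A-rich trend removed the WT value was 0.40 (adjusted p = 0.219). Gm20388, an annotated protein-coding gene on the same strand, spans all of Map1lc3b and had 0 counts in the table. Gm44243 overlaps 692 bases of Gabarapl1 on the same strand. On the opposite strand, 1700101I11Rik overlaps 658 bases of Gabarapl1 and 4930551O13Rik overlaps 3854 bases of Optn. None of these overlapping genes was analysed here. Also on the opposite strand, Mrnip overlaps 750 bases of Sqstm1 and Zcchc14 overlaps 58 bases of Map1lc3b, with 97 and 1808 counts in total. The libraries keep strand, but no source used here says whether the counting took it into account.

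Gabarap (ENSMUSG00000018567, chr11:69991143-69994951, plus strand), the founding GABARAP-subfamily gene, had replicates that disagreed in the treated groups. It measured 516 and 542 CPM in WT controls and 395 and 416 CPM in Nrf2-/- controls, but 556 and 1440 CPM in WT with DI and 710 and 425 CPM in Nrf2-/- with DI. The WT DI pair differed 2.6-fold, a ratio exceeded by 1.35% of the 7490 genes. The WT value of 0.92 ± 0.37 (adjusted p = 0.115) was 1.49 (adjusted p = 0.00833) without WT DI replicate 1 and 0.10 (adjusted p = 0.862) without replicate 2. The Nrf2-/- value was 0.49 ± 0.37 (adjusted p = 0.433).

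Map1lc3a (ENSMUSG00000027602, chr2:155276297-155278073, plus strand), a close paralogue of Map1lc3b, was counted thinly, with 35 to 83 counts per library. Its levels ran from 4.48 to 10.1 CPM and neighbouring groups in the order of levels overlapped. The DI value was 0.63 ± 0.35 in WT (adjusted p = 0.245) and -0.08 ± 0.36 in Nrf2-/- cells (adjusted p = 0.913, 95% interval -0.87 to 0.71). Changes within that interval may have been missed.

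By edgeR with composition scaling, the filter on low counts and all 8 libraries, neither transcription factor gene passed the threshold in any comparison, although other settings called both. Tfeb (ENSMUSG00000023990, chr17:47737030-47792419, plus strand) measured 12.5 and 10.2 CPM in WT controls, 17.4 and 10.2 in WT with DI, 9.45 and 11.6 in Nrf2-/- controls, and 28.7 and 11.8 in Nrf2-/- with DI. In Nrf2-/- cells with DI one library alone stood high, a 2.44-fold split exceeded by 1.38% of the 7490 genes. The DI values were 0.27 ± 0.39 in WT (adjusted p = 0.676) and 0.93 ± 0.39 in Nrf2-/- cells (adjusted p = 0.156). The latter was called without the filter on low counts (0.94, adjusted p = 0.016). It was 1.44 (adjusted p = 0.0282) without Nrf2-/- DI replicate 2 and 0.15 (adjusted p = 0.876) without replicate 1.

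Tfe3 (ENSMUSG00000000134, chrX:7762560-7775202, plus strand) measured 101 and 96.3 CPM in WT controls, 154 and 117 in WT with DI, 259 and 119 in Nrf2-/- controls, and 91.2 and 94.7 in Nrf2-/- with DI. Its highest value came from a single Nrf2-/- control library, and that pair differed 2.17-fold, a ratio exceeded by 0.801% of the 7490 genes. The DI value in Nrf2-/- cells was -1.02 ± 0.31 (adjusted p = 0.0644) and in WT 0.45 ± 0.31 (adjusted p = 0.356). Their difference was -1.47 ± 0.44 (adjusted p = 0.0615). Without Nrf2-/- control replicate 1, the library at 259 CPM, the Nrf2-/- value was -0.35 (adjusted p = 0.574) and the difference of responses -0.83 (adjusted p = 0.257). Without control replicate 2 they were -1.48 (adjusted p = 0.0328) and -1.92 (adjusted p = 0.0244). DESeq2 called both the Nrf2-/- value and the difference of responses (adjusted p = 0.0179 and 0.0142), as did edgeR without the filter on low counts. With composition scaling dropped, edgeR called the Nrf2-/- value only.

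Set side by side by genotype, controls of the 2 genotypes gave 0 called differences among the 10 genes by edgeR, against 0.0812% of all genes higher and 0.524% lower in Nrf2-/- controls. At an unadjusted p under 0.05 there were 2, Optn (-1.02) and Tfe3 (0.93), and DESeq2 called 0. With DI, 1 gene, Optn, was higher and 3 genes, Sqstm1, Gabarapl1 and Gabarapl2, were lower in Nrf2-/- than in WT cells, against 11.4% higher and 9.74% lower over all genes. In those DI libraries the stromal markers summed to 108 to 119 CPM in WT and 44.8 to 45.9 CPM in Nrf2-/- cells, 5 of the 6 markers being lower, and their part in these differences was not tested. The split of calls over all genes depended on scaling. Of the genes called between genotypes with DI 54% were higher, and 65.6% with composition scaling dropped, which moved the median of all genes from 0.01 to 0.12. For DI in WT 42.8% of the calls were higher, and 31.6% without that scaling, with the median going from -0.02 to -0.10. The test of the difference between responses called 1 of 10, Optn, which was higher in Nrf2-/- cells, where 4.96% of all genes had a higher and 2.59% a lower response. By edgeR 0 of 10 had a called lower response in Nrf2-/- cells. At an unadjusted p under 0.05 there were 4, Sqstm1, Map1lc3b, Gabarapl2 and Tfe3, and DESeq2 called 2, Gabarapl2 and Tfe3. These comparisons share libraries: the WT DI pair enters 3 of them, so their values are not independent of each other.

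**Figure D3:**
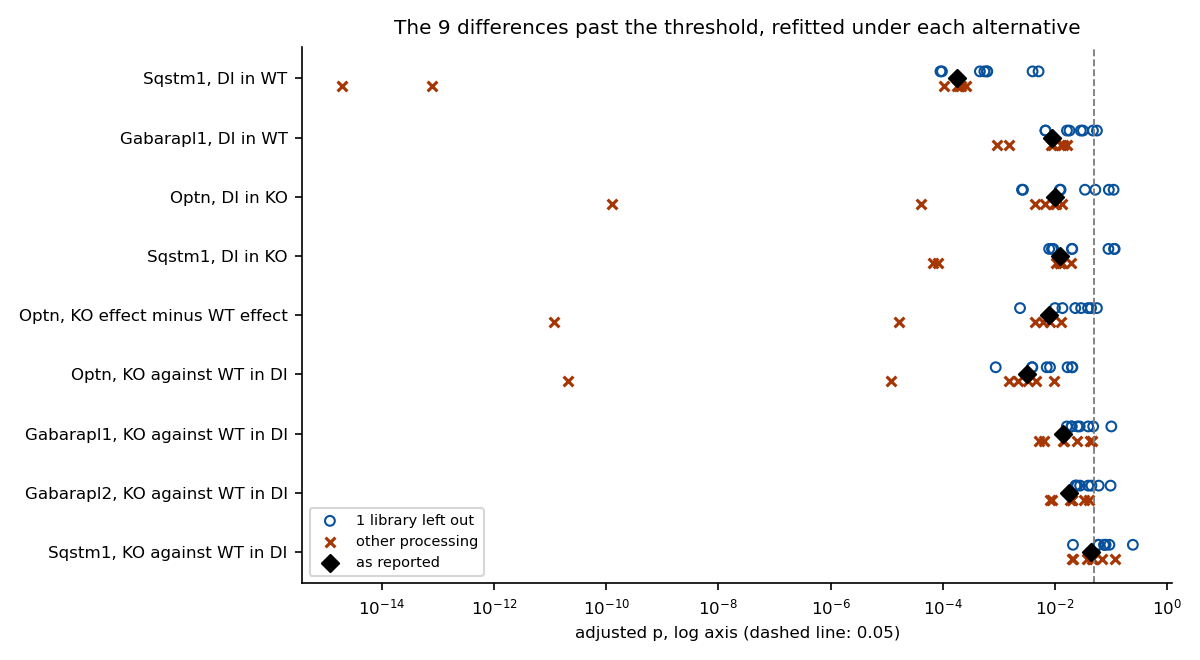
Adjusted p (log axis) of each of the 9 called differences as reported (diamond), with 1 library left out (open circles) and under other processing (crosses); the dashed line is 0.05. Sqstm1 in WT and Optn between genotypes with DI stay left of the line in all 15 alternatives, whereas Sqstm1 between genotypes with DI lies right of it in 9 of 15.

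The genes whose levels over the 8 libraries most resembled Sqstm1, by Pearson r of log2 CPM among genes with a mean of at least 10 CPM, were Rnf149 (0.99), Pf4 (0.987), Sarnp (0.982), Rheb (0.977) and Oser1 (0.972). Rheb encodes the GTPase that activates mTORC1, the kinase that keeps TFEB in the cytoplasm, and Pf4 encodes the chemokine CXCL4. With DI, Pf4 rose in WT (1.79, adjusted p = 0.000446) with a value of 0.73 (adjusted p = 0.0737) in Nrf2-/- cells. Oser1 rose in both (1.60 and 0.83, adjusted p = 0.000544 and 0.0386). Optn was most like Cd3eap (0.979), Pdap1 (0.977), Leo1 (0.976), Rmnd1 (0.975) and Sltm (0.973). These 5 hold 11 or 12 A in their richest 15 coding bases against 10 in Optn, in classes where the median difference of responses was 0.44 and 0.54, and the part of A-rich sequence in that likeness was not tested. Among them, Leo1 and Sltm rose in Nrf2-/- cells with DI (1.19 and 0.87, adjusted p = 0.0317 and 0.0345). These 8 libraries share only 4 conditions, so r is a description.

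The wider pathway was read through 5 lists. Over all 11079 genes, 6.51% rose and 8.68% fell with DI in WT, and 4.49% rose and 4% fell in Nrf2-/- cells. Between genotypes with DI, 11.4% were higher and 9.74% lower, and 4.96% had a higher and 2.59% a lower response in Nrf2-/- cells. The share called in a list ran from 3.85% to 18.5% with DI in WT and from 19.2% to 37% between genotypes with DI. Of 26 tested genes of the core machinery, which starts, shapes and closes the autophagosome, 1 changed with DI in WT, 1 changed in Nrf2-/- cells, and 5 differed between Nrf2-/- and WT cells with DI. In WT, Ulk2, a starter kinase, fell by 1.05 (adjusted p = 0.0469), while Atg101 at 0.79 (0.0555), Pik3c3 at -0.69 (0.0863) and Rb1cc1 at -0.64 (0.116) did not pass. The phosphoinositide-binding Wipi2 rose in Nrf2-/- cells by 0.74 (adjusted p = 0.05 as rounded, under the threshold). Atg16l1, Atg2b and Atg12 had values of 0.74, 0.74 and 0.64 (adjusted p = 0.0875, 0.0919 and 0.092). All 5 that differed were higher in Nrf2-/- cells with DI: Ulk2 (1.60), Rb1cc1 (1.28), Atg16l1 (1.27), Atg14 (1.02) and Wipi2 (0.70). The list median was 0.06 with DI in WT, 0.08 in Nrf2-/- cells and 0.24 between genotypes with DI, where all tested genes had -0.02, 0.00 and 0.01. The count higher between genotypes was 3 with only the DI groups fitted and 4 with the A-rich trend removed, and it also depended on single libraries. The lower count of 1 in WT became 0 with the A-rich trend removed. With a replicate block, 1 gene was also called higher in WT. The higher count of 1 in Nrf2-/- cells became 0 with library totals, with DESeq2 size factors in edgeR and with a replicate block. It was also 0 with the A-rich trend removed and with only the Nrf2-/- groups fitted. Both calls also depended on single libraries. The response of Rb1cc1, a scaffold of the ULK kinase complex, differed by genotype by 1.32 (adjusted p = 0.0489). This 1 call in the list became 0 with DESeq2 size factors in edgeR and with the A-rich trend removed. It also depended on single libraries. Rb1cc1 holds 12 A in its richest 15 coding bases, a class with a median difference of responses of 0.54.

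Of 18 other autophagy receptors, 1 rose with DI in WT and 0 were called in Nrf2-/- cells by edgeR and by DESeq2, with 2 at positive and 1 at negative values under an unadjusted p of 0.05. Bnip3l, the outer-membrane receptor for mitochondria also called NIX, rose in WT by 0.83 (adjusted p = 0.0406), a call lost with composition scaling dropped, with only the WT groups fitted and without either WT control, WT DI replicate 2 or either Nrf2-/- control. Tex264 at 0.63 (0.0758), Fundc1 at -0.78 (0.0888) and Tax1bp1 at -0.54 (0.0947) did not pass. For the difference of responses edgeR called 0 of the 18, with Bnip3l at -1.08 (adjusted p = 0.0771), and DESeq2 called 1 higher and 1 lower. Without NRF2, Wdfy3 (-0.65), Tax1bp1 (0.46), Nufip1 (0.61) and Retreg1 (-0.43) had adjusted p from 0.111 to 0.234. With DI, Tax1bp1 (0.81) and Nufip1 (0.85) were higher and Bnip3l (-0.78) and Fkbp8 (-0.72) lower in Nrf2-/- than in WT cells. The list median was -0.08, and 22.2% of the list was called, near the 11.4% higher and 9.74% lower over all genes. With the A-rich trend removed 0 were higher and 1 lower, and with only the DI groups fitted 0 and 0. Without WT DI replicate 2 or without Nrf2-/- DI replicate 1 the counts were also 0 and 0.

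Of 19 genes for TFEB relatives and nutrient sensing at the lysosome, 1 rose in WT by edgeR and 2 by DESeq2. In Nrf2-/- cells 0 were called by either. There, by edgeR, 0 had a positive and 1 a negative value under an unadjusted p of 0.05. The edgeR riser in WT was Tfec, a TFEB relative expressed in macrophages, at 1.64 (adjusted p = 0.000962). Rheb (0.64, adjusted p = 0.0559), Lamtor4 (0.59, 0.081) and Lamtor3 (0.52, 0.135) did not pass in WT by edgeR. Nor did Lamtor4 (-0.64, 0.0902), Flcn (-0.50, 0.218), Tsc1 (0.46, 0.251) and Rheb (0.39, 0.252) in Nrf2-/- cells. With DI, Tfec (-1.96), Mitf (-0.86) and the Ragulator scaffold genes Lamtor4 (-0.99) and Lamtor5 (-0.72) were lower in Nrf2-/- than in WT cells, with a list median of -0.28. Tfec had a value of 0.50 (adjusted p = 0.279) in Nrf2-/- cells, and its difference of responses, -1.14 (adjusted p = 0.0798), was not called. The response of Lamtor4 differed by genotype by -1.23 (adjusted p = 0.031), which was lost in 7 of the 8 fits that left out 1 library. The count of 4 became 1 with the A-rich trend removed and 2 with composition scaling dropped. It also became 2 with only the DI groups fitted, and without WT DI replicate 2, Nrf2-/- control replicate 1, control replicate 2 or DI replicate 1.

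Of 27 lysosomal genes known as TFEB targets, 3 rose with DI in WT. The list medians were 0.18 in WT and -0.32 in Nrf2-/- cells. Psap, precursor of the saposins that help degrade sphingolipids, rose in WT by 1.08 (adjusted p = 0.00531). The proton pump subunit gene Atp6v1h (0.89) and the cholesterol exporter gene Npc1 (0.81) rose with it (adjusted p = 0.0317 and 0.0299). The hydrolase gene Sgsh fell in both genotypes, by 1.05 in WT and by 1.64 in Nrf2-/- cells (adjusted p = 0.0338 and 0.00932). Without NRF2, Naglu (-0.77, adjusted p = 0.0637) and Atp6v1h (0.80, 0.0681) did not pass. With DI, 9 were lower in Nrf2-/- than in WT cells, with a list median of -0.52. Psap at -2.15, Cd63 at -1.08, Tpp1 at -1.08, Atp6v0d2 at -0.96, Lamp1 at -0.87, Naglu at -0.80, Npc1 at -0.78, Atp6ap1 at -0.77 and Ctsb at -0.67 were the 9. That count was 5 without WT DI replicate 1, 1 without Nrf2-/- DI replicate 1, 3 with only the DI groups fitted and 6 with the A-rich trend removed. In WT, the 3 that rose became 2 without WT control replicate 1 or WT DI replicate 2, 0 without WT control replicate 2 and 1 without either Nrf2-/- control. The fall of Sgsh in WT was lost, among the fits that left out 1 library, at least without WT control replicate 2, WT DI replicate 2 or either Nrf2-/- control, and that in Nrf2-/- cells at least without either of their controls. Only the response of Psap differed by genotype within the list, by -1.62 (adjusted p = 0.00832), a call lost without Nrf2-/- control replicate 2.

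Of 14 genes for fusing the autophagosome with the lysosome, 2 fell with DI in WT, and 0 were called in Nrf2-/- cells by edgeR and DESeq2, with 2 positive and 1 negative under an unadjusted p of 0.05. Vps39, a subunit of the HOPS tethering complex, fell in WT (log2 fold change -2 ± 0.23 SE, adjusted p = 0.000204), and the SNARE gene Stx17 fell by 0.97 (adjusted p = 0.0416). Vps41 (-0.82, 0.08) and Plekhm1 (0.54, 0.106) did not pass. Without NRF2, Vps11 (-0.83), Vps33a (0.75), Vps39 (0.52) and Rab7 (-0.40) had adjusted p from 0.0693 to 0.236. The responses of Vps39 and Vps33a differed by genotype, by 2.51 and 1.38 (adjusted p = 0.00171 and 0.0448). That count of 2 depended on single libraries, and which of the calls was lost was not recorded. Vps39 was already lower in Nrf2-/- controls than in WT controls by 1.58 (adjusted p = 0.00966). With DI, these 2 were higher (0.93 and 1.15) and Plekhm1 (-1.02), Rab7 (-0.96) and Ykt6 (-0.85) lower in Nrf2-/- than in WT cells, with a list median of 0.17. The 2 genes that fell in WT became 1 without either WT DI library and without Nrf2-/- control replicate 1, and the 2 that were higher became 1 without WT DI replicate 1 or either Nrf2-/- DI library and 4 with composition scaling dropped.

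**Figure D4:**
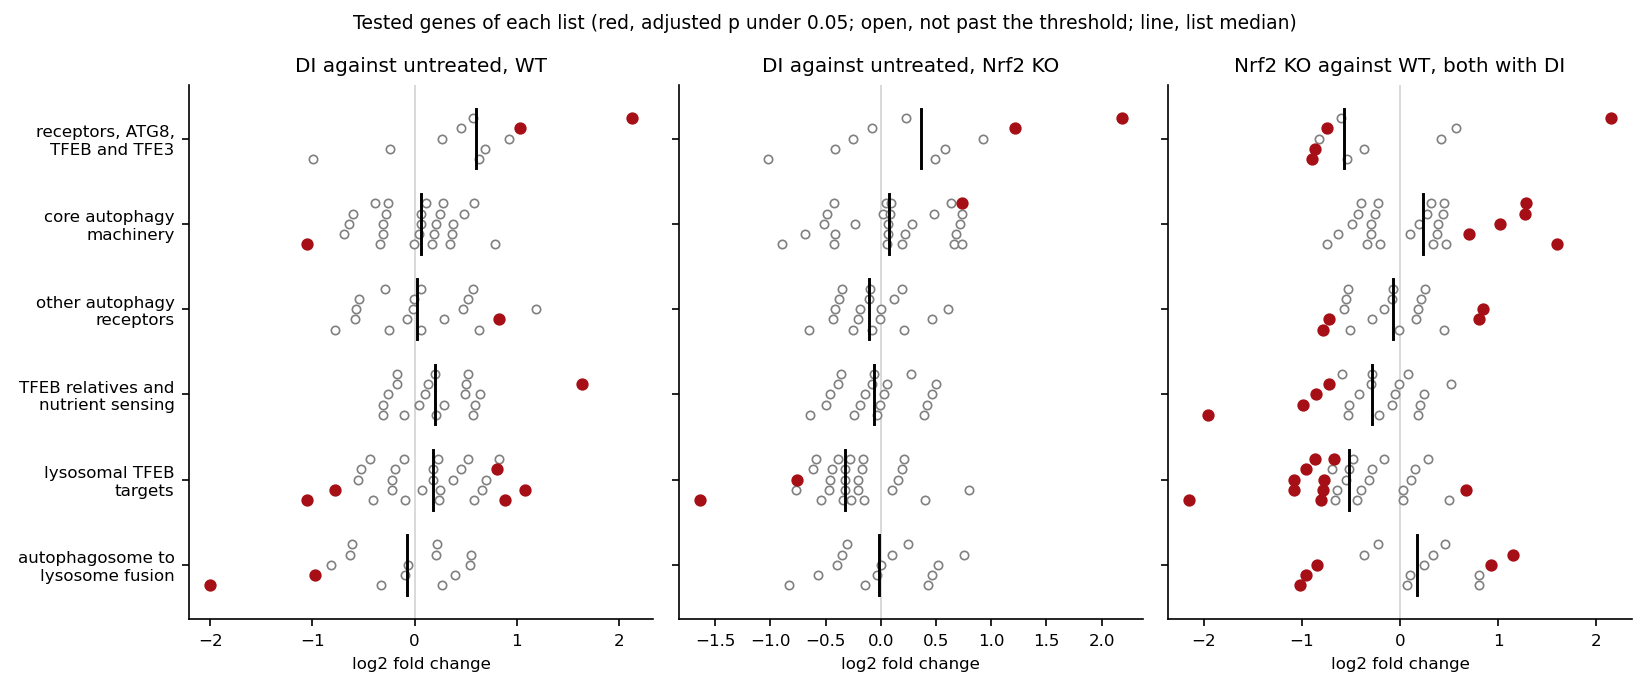
Log2 fold changes of all tested genes of the 10 genes described and of the 5 lists, with DI in WT, with DI in Nrf2-/- cells and between genotypes with DI; each panel has its own horizontal scale, red points passed an adjusted p of 0.05 and the line is the list median. Between genotypes with DI, 9 of 27 lysosomal TFEB targets are red below 0 and 5 of 26 core genes red above 0. Over all tested genes, 9.74% were called lower and 11.4% higher.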

How the data were processed

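The deposited values are raw counts per gene and library. Per the labels' protocols, polyA RNA was primed with barcoded oligo-dT and made into strand-specific libraries without molecular identifiers. Counts therefore mostly reflect the 3′ end, and levels are not compared between genes. STAR, HTSeq and DESeq2 are the tools, and mm10 the build, listed in the submitters' processing notes, without versions or settings.

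Gene names came from GENCODE mouse release 21: 21745 of 22165 counted genes matched, and the 420 others (0.129% of counts) were kept without a symbol. Genes without any count numbered 6866. edgeR 4.0.16 (R 4.3.3, limma 3.58.1) filtered genes with filterByExpr (minimum count 10), scaled by TMM and fitted 1 mean per group over all 8 libraries with a robust quasi-likelihood F-test. P-values were adjusted by Benjamini-Hochberg over 11079 genes, with a threshold of 0.05. The steps were tested on simulated data. Log2 CPM used a prior count of 2. Intervals are at 95%. Replicates differed by more than sampling noise (chi-square per degree of freedom 12.8 to 37.9), so each library counts once.

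The A-rich class is the highest number of A in 15 consecutive coding bases (10999 tested genes). Promoters are from RefSeq (GRCm38.p6). Alternatives were DESeq2 1.42.0, its size factors in edgeR, library totals, no filter, only the groups compared, a replicate block, removal of the A-rich trend and leaving out each library.

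The 10 genes, the lists and the tests were chosen with earlier results of these data known. Named genes are all 10 in every comparison, the 5 most similar to Sqstm1 and to Optn, and up to 4 with the smallest p per list with DI in each genotype. Genes named between genotypes or for a difference of responses were added after their values were seen, as all called members of a list. The uncalled differences of responses of Tfec and Bnip3l were added beside them. The results of 1 list gene are not reported here. Figures were drawn with matplotlib 3.10.9.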

Additional observations from a re-analysis of the deposited data

Results flagged for a closer look

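Optn responded differently to DI in the 2 genotypes by the test of the difference itself, the response in Nrf2-/- cells exceeding that in WT cells by 3.17 on the log2 scale (adjusted p = 0.00774, edgeR). Its value was positive in Nrf2-/- cells (2.18) and negative in WT cells (-0.99), where the groups overlapped.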

How the results depend on the processing

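Of 50 values (10 genes, 5 comparisons), 9 passed the threshold. Over 740 alternative values, 683 kept call and sign, 20 lost the call, 22 gained one and 15 changed sign, of which 0 were called in either fit. The causes were not tested. DESeq2 called 3 of the 10 genes for the difference of responses. Without the filter, 4 were called for DI in WT, 4 for DI in Nrf2-/- cells, 3 for the difference of responses and 2 between controls. Leaving out 1 library gave 1 to 3 genes for DI in WT, 0 to 3 for DI in Nrf2-/- cells, 1 for the difference of responses, 0 between controls and 2 to 4 between genotypes with DI. The 1 for the difference of responses was Tfe3, not Optn, without Nrf2-/- control replicate 2. Same-numbered libraries did not deviate together (r from -0.08 to 0.156), so the numbers are not taken as pairs. A replicate block gave 2, 2, 1, 0 and 4 called genes in the same order of comparisons, as without it, and a difference of responses of 3.24 for Optn.

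Some values near 0 changed sign. With the A-rich trend removed, Map1lc3a for DI in Nrf2-/- cells was 0.18. Leaving out 1 library gave ranges across 0. For DI in WT, Tfeb ran from -0.12 to 0.65. For DI in Nrf2-/- cells, Nbr1 ran from -0.32 to 0.62 and Map1lc3a from -0.49 to 0.24. For the difference of responses, Nbr1 ran from -0.08 to 0.87, Gabarap from -0.99 to 0.40 and Tfeb from -0.12 to 1.17. Between controls, Nbr1 ran from -0.17 to 0.06 and Tfeb from -0.26 to 0.06. Between genotypes with DI, Nbr1 ran from -0.13 to 0.81, Map1lc3a from -0.79 to 0.03, Gabarap from -1.37 to 0.02 and Tfeb from -0.21 to 1.08. The Gabarap extremes came without WT DI replicate 1 or 2.

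Counts over all genes moved more. Without the filter, 1029 genes rose and 668 fell with DI in Nrf2-/- cells, 1106 had a higher and 491 a lower response, and 72 were higher and 325 lower between controls. DESeq2 called 34 higher and 142 lower between controls. Leaving out 1 library gave 290 to 745 higher and 506 to 1001 lower for DI in WT, 29 to 598 and 74 to 491 for DI in Nrf2-/- cells, 137 to 609 and 101 to 324 for the difference of responses, 1 to 16 and 10 to 65 between controls, and 654 to 1203 and 520 to 1021 between genotypes with DI. Map1lc3a had 35 to 83 counts per library, and the lowest single count of the 10 genes was 23, for Optn in WT DI replicate 1. The SE of Map1lc3a for DI in WT, 0.35, was below those of Optn (0.40), Tfeb (0.39) and Gabarap (0.37).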

Other observations

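Outside the 10 genes, 4 list genes with large differences were looked at by library, a choice made after their values were seen. Vps39, a subunit of the HOPS tethering complex, measured 97.2 and 85.4 CPM in WT controls and 20 and 25.5 CPM in WT with DI. Its Nrf2-/- libraries gave 28.7 and 32.2 CPM in controls and 38.7 and 48.5 CPM with DI, so WT controls stood above all others. Tfec, a TFEB relative, measured 8.13 and 7.25 CPM in WT controls, 24 and 23.9 in WT with DI, 4.2 and 4.45 in Nrf2-/- controls, and 6.83 and 5.47 in Nrf2-/- with DI. Psap, the saposin precursor gene, measured 2380 and 1950 CPM in WT controls, 4810 and 4360 in WT with DI, 1460 and 1550 in Nrf2-/- controls, and 1040 and 1030 in Nrf2-/- with DI. For both Tfec and Psap, the WT DI pair was the highest and the groups did not overlap between genotypes under either treatment. In controls, however, edgeR called neither genotype difference (Tfec -0.82, adjusted p = 0.262, and Psap -0.52, adjusted p = 0.391). How many of all genes show such non-overlap of 2 libraries against 2 was not counted. Ulk2, a starter kinase gene of autophagy, measured 21.3 and 24.6 CPM in WT controls, 9.11 and 12.9 in WT with DI, 26.8 and 30.8 in Nrf2-/- controls, and 22.1 and 45.1 in Nrf2-/- with DI, with the WT DI pair lowest.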
